A study of Mus musculus with 32 samples.

Results

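A set of 9 genes of transforming growth factor beta (TGF-beta) signalling were examined in liver, epididymal white fat (eWAT), inguinal white fat (iWAT) and brown fat (BAT) of *Gpr146*-/- and wild-type mice. They were the ligands *Tgfb1*, *Tgfb2* and *Tgfb3*, the receptors *Tgfbr1* and *Tgfbr2*, the signal transducer *Smad3*, the inhibitors *Smad7* and *Pmepa1*, and the target gene *Ctgf*. The genes were chosen by name, and all 9 of 9 were found among the 24646 genes measured in every tissue. The mice were males on a C57BL/6J background, aged 20 weeks, that had received a high fat diet (HFD) for 3 months and were fasted overnight before the tissues were taken. *Gpr146*, which encodes an orphan G protein-coupled receptor, had been deleted in the whole body, and the wild-type mice were littermates of the knockouts. Each genotype had 4 mice per tissue and 1 array per mouse and tissue, 32 arrays in all. Because the deletion was present in every cell and the tissues were taken whole, a change in a tissue cannot be told apart from a response to a change elsewhere in the body.

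TGF-beta ligands are secreted as latent complexes that are stored in the extracellular matrix and must be activated. The active ligand binds TGFBR2, which recruits and phosphorylates TGFBR1, and TGFBR1 in turn phosphorylates SMAD2 and SMAD3, which enter the nucleus with SMAD4. The pathway is best known for driving matrix production by fibroblasts and for restraining immune cells, and in fat it also restrains the formation of adipocytes. *Smad7* and *Pmepa1* are themselves induced by the pathway and dampen it, the first at the receptor and the second by binding SMAD2 and SMAD3, and *Ctgf* encodes a matricellular protein induced by TGF-beta.

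All values are log2 expression values deposited for Affymetrix Mouse Gene 2.1 ST arrays, so a difference of 1 is a 2-fold difference. Knockout and wild-type mice were compared within a tissue with limma, with the Benjamini-Hochberg adjustment across the 24646 genes, and a gene was called where its adjusted p was under 0.05. Each single value was also given an exact permutation test over the 70 relabelings of 4 mice against 4, in which the smallest two-sided p is 0.0286. The targeted gene *Gpr146* was lower in every knockout array than in every wild-type array of its tissue, by -1.77 in liver, -1.53 in eWAT, -1.55 in iWAT and -1.16 in BAT. Its change passed the threshold in liver and eWAT, but not in iWAT (adjusted p = 0.221, limma) or BAT (adjusted p = 0.0727, limma). The titles of the 4 knockout liver samples name both genotypes, and the samples were used as knockout, as their other labels say. Hepatocyte markers averaged 9.90 to 9.99 over the liver arrays, adipocyte markers 8.17 to 9.41 over the fat arrays and brown adipocyte markers 8.34 to 9.15 over the BAT arrays. Markers of other tissues were high in some arrays. B cell and T cell markers were high in wild-type iWAT replicates 1 and 2 and knockout replicate 2, and to a lesser degree in knockout replicate 4, and skeletal muscle markers were high in wild-type BAT replicates 2 and 3 and knockout replicate 2.

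The 4 genes that changed together, in eWAT, were *Tgfb1*, *Tgfb2*, *Tgfbr1* and *Tgfbr2*, and their promoters are shown for that reason. Each run of 300 bases was read from RefSeq on GRCm38.p6, from 250 bases before to 50 after a transcription start site, 5' to 3' on the strand of the gene. Capitals mark the SMAD binding element CAGAC or its reverse complement GTCTG. The *Tgfb1* promoter lay at chr7:25686752-25687051 (plus strand), that of *Tgfb2* at chr1:186705940-186706239 (minus strand), that of *Tgfbr1* at chr4:47352972-47353271 (plus strand) and that of *Tgfbr2* at chr9:116175314-116175613 (minus strand).
Tgfb1 promoter: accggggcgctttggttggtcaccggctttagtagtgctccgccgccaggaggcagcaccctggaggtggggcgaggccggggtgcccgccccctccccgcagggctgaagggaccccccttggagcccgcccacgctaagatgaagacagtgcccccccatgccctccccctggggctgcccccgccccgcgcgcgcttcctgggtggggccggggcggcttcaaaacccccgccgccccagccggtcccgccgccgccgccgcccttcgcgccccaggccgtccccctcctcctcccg
Tgfb2 promoter: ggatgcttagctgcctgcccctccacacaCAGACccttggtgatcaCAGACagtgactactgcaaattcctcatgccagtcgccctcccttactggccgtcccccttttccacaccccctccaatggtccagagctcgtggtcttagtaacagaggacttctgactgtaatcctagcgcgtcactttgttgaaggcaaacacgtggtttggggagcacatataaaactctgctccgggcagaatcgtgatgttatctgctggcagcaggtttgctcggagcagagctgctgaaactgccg
Tgfbr1 promoter: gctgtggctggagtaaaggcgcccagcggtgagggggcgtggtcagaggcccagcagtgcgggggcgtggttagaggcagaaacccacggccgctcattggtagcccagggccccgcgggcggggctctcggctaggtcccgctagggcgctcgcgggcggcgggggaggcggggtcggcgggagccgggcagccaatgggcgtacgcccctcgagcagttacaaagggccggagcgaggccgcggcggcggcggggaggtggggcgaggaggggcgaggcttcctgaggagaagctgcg
Tgfbr2 promoter: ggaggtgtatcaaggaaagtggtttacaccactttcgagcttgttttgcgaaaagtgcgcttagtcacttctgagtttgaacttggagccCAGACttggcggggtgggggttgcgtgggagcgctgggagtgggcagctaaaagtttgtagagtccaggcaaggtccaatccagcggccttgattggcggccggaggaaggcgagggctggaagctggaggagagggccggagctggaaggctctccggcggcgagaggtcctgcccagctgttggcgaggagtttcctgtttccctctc
The *Tgfb2* window held 2 SMAD elements, 221 and 204 bases before the start site, and the *Tgfbr2* window held 1, 160 bases before it. The *Tgfb1* window and the *Tgfbr1* window shown held none, whereas a second *Tgfbr1* start site listed by RefSeq had 1 element, 203 bases before it. Of all 32851 promoter windows of this length, 49.6% held at least 1 such element, so its presence here is a description of the letters. Of the 9 genes, 5 matched the promoter table, and the window of *Smad3*, the fifth, held no SMAD element.

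Wild-type levels differed between tissues, with white fat highest for most of the genes. The 4 tables were normalized apart, so these levels are a description, given as deposited and after subtracting the median of each array. *Tgfb1* stood at 8.63 ± 0.05 (SD, n = 4) in eWAT, 7.85 ± 0.34 in iWAT, 5.60 ± 0.17 in BAT and 4.49 ± 0.13 in liver, and *Tgfb3* at 6.35 ± 0.24, 5.51 ± 0.43, 3.76 ± 0.14 and 2.68 ± 0.11 in the same order. For both ligands the ranges of neighbouring tissues did not overlap on either scale. *Tgfb2* followed the same order in white fat, at 4.19 ± 0.17 in eWAT and 3.77 ± 0.19 in iWAT, and its ranges in liver (mean 2.83) and BAT (mean 2.62) overlapped. 

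The receptors were highest in eWAT too, *Tgfbr2* at 7.32 ± 0.11 and *Tgfbr1* at 6.00 ± 0.07. *Tgfbr2* was lowest in liver, at 5.02 ± 0.21, and *Tgfbr1* lowest in BAT, at 4.36 ± 0.11, while the middle places changed with the scale. *Smad3* was highest in eWAT (5.60 ± 0.09), where its range overlapped that of iWAT (5.35 ± 0.16) as deposited, and lowest in BAT (4.18 ± 0.30). After subtracting the array median, the ranges of BAT and iWAT overlapped for both *Tgfbr1* and *Smad3*. *Pmepa1* had another pattern, with 8.76 ± 0.46 in BAT, 8.59 ± 0.66 in iWAT and 7.60 ± 0.41 in eWAT, neighbouring ranges that overlapped, and 3.55 ± 0.10 in liver, below all fat arrays. *Smad7* had no order that held on both scales, its means lying between 3.82 in BAT and 5.15 in iWAT. *Ctgf* was highest in eWAT (4.22 ± 0.18). Relative to the array median, *Ctgf* lay at -0.28 in iWAT and -0.07 in BAT, *Tgfb2* at -0.18 in liver and -0.21 in BAT, and *Tgfb3* at -0.33 in liver. Values that low may carry little signal over background, and the tables used here hold no detection call.

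**Figure D1:**
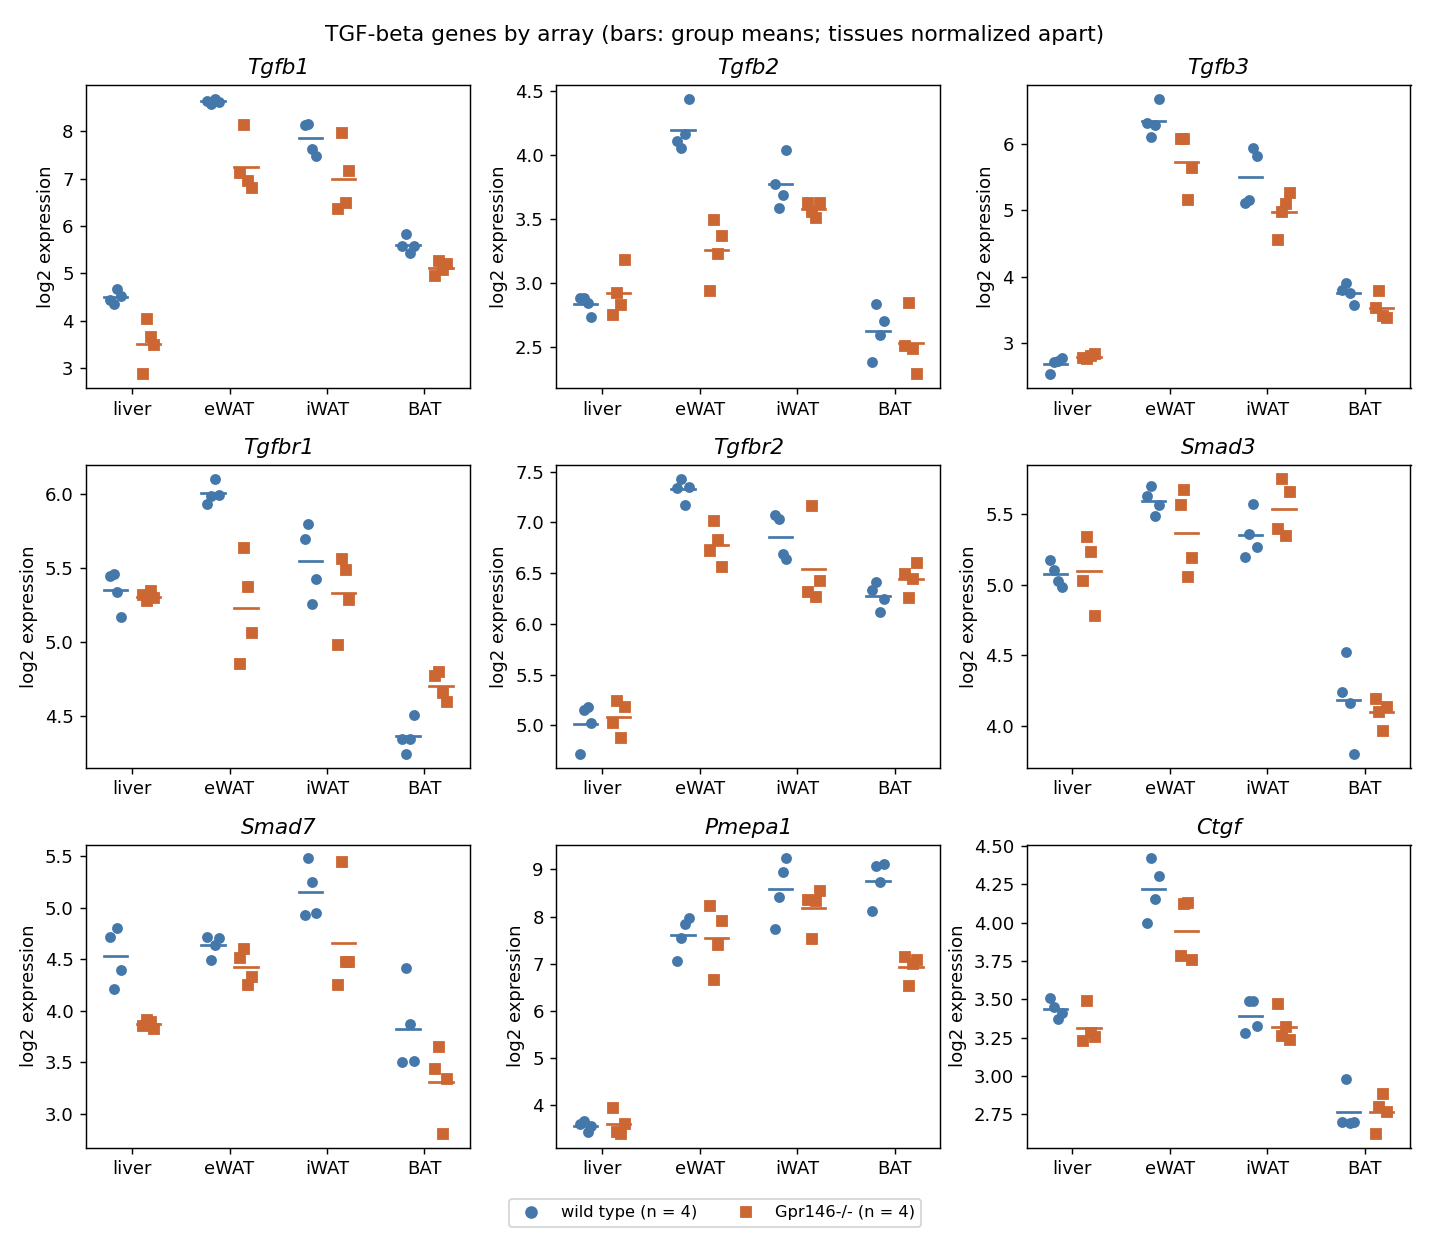
Log2 expression of the 9 genes in each of the 32 arrays, with wild-type mice as blue circles, *Gpr146*-/- mice as orange squares and a bar at each group mean (n = 4). The knockout values of *Tgfb1* lie below the wild-type values in liver, eWAT and BAT, those of *Tgfb2*, *Tgfb3* and both receptors in eWAT, those of *Smad7* in liver and those of *Pmepa1* in BAT, while *Tgfbr1* in BAT lies above.

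In eWAT, knockout mice had less RNA for 2 ligands and both receptors. *Tgfb1*, *Tgfb2*, *Tgfbr1* and *Tgfbr2* fell, and all 9 genes had a negative change, with a median of -0.54 against 0.03 over all genes. The 4 calls of 9 compare with 15.2% of all genes called in eWAT in either direction and 10.7% called lower. All 9 genes lay above the array median in wild-type eWAT, and calls were more frequent among brighter genes. With genes at or below the median level left out, 3829 genes were called in either direction, compared with 3758 of all 24646. In this bulk tissue, fewer cells of a type and less RNA per cell cannot be told apart.

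*Tgfb1*, the ligand most widely made by immune cells, measured 8.65, 8.57, 8.68 and 8.61 in the wild-type eWAT arrays and 7.12, 8.12, 6.96 and 6.80 in the knockout arrays. The wild-type mice lay close together, and knockout replicate 2 was the knockout array nearest to them. The change was -1.38 (standard error 0.25, adjusted p = 0.0107, limma), a 2.60-fold lower level. *Tgfb2* measured 4.11, 4.06, 4.16 and 4.44 in wild-type eWAT and 2.93, 3.49, 3.23 and 3.37 in knockout eWAT. The groups were apart, with a change of -0.94 (standard error 0.13, adjusted p = 0.00823). *Tgfb3*, made largely by mesenchymal cells, ranged from 6.11 to 6.68 in wild-type and from 5.15 to 6.07 in knockout eWAT. Its groups did not overlap either, but its change of -0.62 did not pass the threshold (adjusted p = 0.0784), except with knockout replicate 2 left out (adjusted p = 0.0347).

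The receptor that carries the signal to the SMAD proteins, *Tgfbr1*, measured 5.94, 5.98, 6.10 and 5.99 in wild-type and 4.85, 5.64, 5.37 and 5.06 in knockout eWAT. Every knockout mouse was below every wild-type mouse, and the change was -0.77 (standard error 0.15, adjusted p = 0.0136). *Tgfbr2*, the receptor that binds the ligand first, measured 7.34, 7.43, 7.17 and 7.35 in wild-type and 6.72, 7.01, 6.82 and 6.56 in knockout eWAT. It too showed no overlap, with a change of -0.54 (standard error 0.11, adjusted p = 0.0132). In all, 5 of 9 genes had all knockout values below all wild-type values, compared with 13.0% of all genes, and the exact permutation p of each was 0.0286, the smallest possible. The 4 called genes stayed called in each of the 8 runs that left out 1 array, with adjusted p up to 0.0480. The methods' t-test, which does not moderate the variances, gave them adjusted p of 0.0617 to 0.0702.

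Downstream of the receptors the 4 remaining genes did not pass in eWAT. *Smad3* changed by -0.23 (95% interval -0.53 to 0.08), *Smad7* by -0.21 (-0.44 to 0.01) and *Ctgf* by -0.27 (-0.56 to 0.01). *Pmepa1* had the widest spread, with 7.06 to 7.98 in wild-type and 6.64 to 8.23 in knockout arrays, and its change of -0.07 had an interval of -0.80 to 0.67. Its sign turned under 2 alternative treatments of the arrays.

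**Figure D2:**
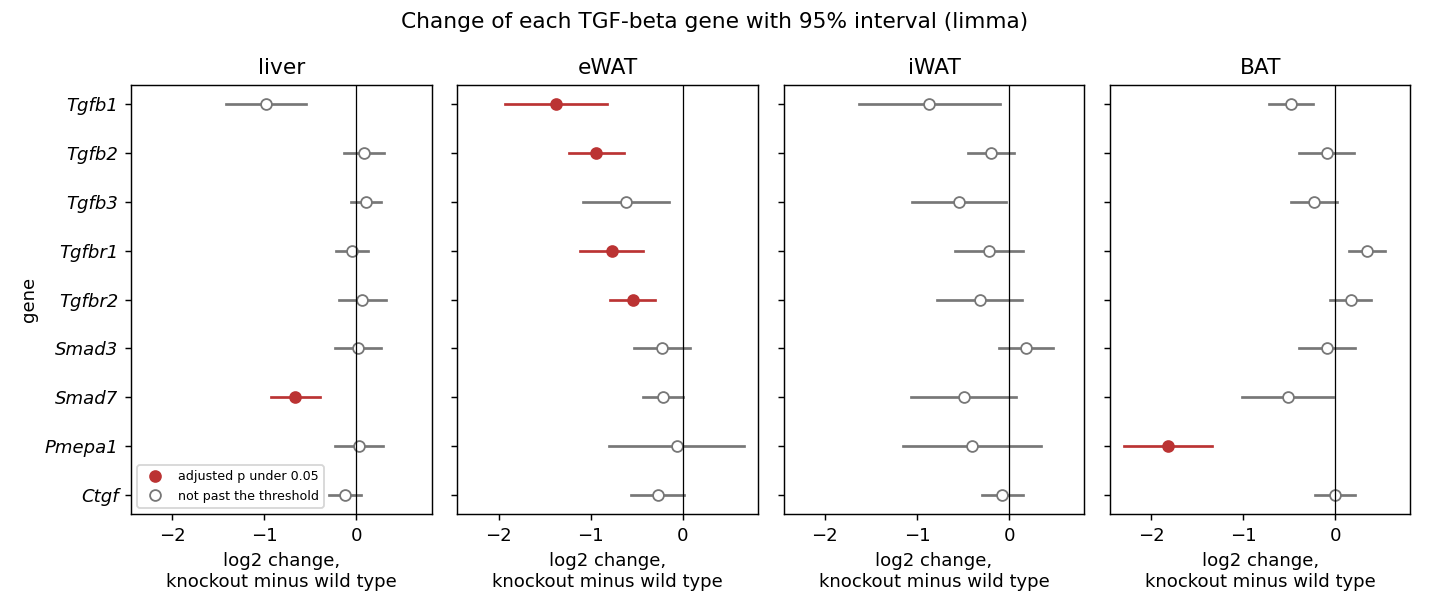
Log2 change of each gene, knockout minus wild type, in the 4 tissues, with its 95% interval from limma. Filled red points passed the adjusted p of 0.05: *Smad7* in liver, *Tgfb1*, *Tgfb2*, *Tgfbr1* and *Tgfbr2* in eWAT, and *Pmepa1* in BAT.

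In liver, *Smad7* was the member called, and *Tgfb1* lay just beyond the threshold. It was 1 of 9 genes called, compared with 0.661% of all genes in either direction and 0.499% lower. *Smad7*, which blocks the activated receptor, measured 4.71, 4.21, 4.81 and 4.39 in wild-type livers and 3.85, 3.91, 3.89 and 3.82 in knockout livers. The knockout livers lay within a narrow band below all wild-type livers, and the change was -0.66 (standard error 0.12, adjusted p = 0.0371). The call held when either replicate 2, wild-type or knockout, was left out and was lost without any other single array, with adjusted p of 0.0667 to 0.116, and it was lost with quantile normalization (adjusted p = 0.0570).

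*Tgfb1* measured 4.43, 4.35, 4.66 and 4.53 in wild-type and 2.87, 4.05, 3.65 and 3.49 in knockout livers. The groups did not overlap, and its change of -0.98 (standard error 0.20) missed the threshold with an adjusted p of 0.0533. Over the 8 runs without 1 array the change lay between -1.16 and -0.76 and the adjusted p between 0.00985 and 0.153, and it passed in 1 of them, without knockout replicate 2, the highest knockout liver. These were the 2 genes of 9 with all knockout livers below all wild-type livers, compared with 4.16% of all genes. The other 7 genes changed by between -0.12 in *Ctgf* and 0.10 in *Tgfb3*, and the intervals of *Tgfbr1* (-0.22 to 0.13) and *Tgfbr2* (-0.19 to 0.32) end above their changes of -0.77 and -0.54 in eWAT.

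In BAT, *Pmepa1* had the largest change of any of these genes in any tissue. *Pmepa1* encodes a membrane protein that sequesters SMAD2 and SMAD3 from the receptor. It measured 8.12, 9.06, 8.73 and 9.11 in wild-type BAT and 7.14, 6.53, 7.001 and 7.07 in knockout BAT. The lowest wild-type array was above the highest knockout array, and the change was -1.82 (standard error 0.21, 95% interval -2.30 to -1.34), a 3.53-fold lower level. Its adjusted p was 0.0483, and it was 1 of 7 genes called in BAT, 0.0284% of all genes. The size was stable and the call was not. The change lay between -2.03 and -1.69 with any single array left out, but the adjusted p rose to between 0.0621 and 0.191 without any array other than wild-type replicate 1, to 0.0664 with quantile normalization and to 0.0543 with array medians made equal. Without the 3 BAT arrays with high muscle markers, a choice made after seeing the data, the change was -1.54 with an adjusted p of 0.422, and 0 of 24646 genes were called.

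The ligand and receptor genes in BAT moved less and did not pass. *Tgfb1* measured 5.58, 5.83, 5.42 and 5.58 in wild-type and 4.95, 5.26, 5.06 and 5.20 in knockout BAT. These groups did not overlap (change -0.48, adjusted p = 0.130), and with *Pmepa1* they make 2 of 9 genes with all knockout values below, compared with 3.92% of all genes. *Tgfbr1* went the other way, at 4.35, 4.24, 4.35 and 4.51 in wild-type and 4.77, 4.80, 4.66 and 4.60 in knockout BAT. Every knockout array was above every wild-type array, as in 3.31% of all genes, and the change of 0.34 had an adjusted p of 0.155. *Tgfbr2* changed by 0.17 (adjusted p = 0.538). *Smad7* changed by -0.52 (adjusted p = 0.374), with overlapping groups, and *Ctgf* by -0.002 (95% interval -0.22 to 0.21).

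In iWAT none of the 9 genes was called, and 0 of all genes (0%) were, although 15.4% of all genes had an unadjusted p under 0.05. With limma, *Tgfb1* and *Tgfb3* were the 2 of 9 genes with an unadjusted p under 0.05. *Tgfb1* measured 8.13, 8.15, 7.63 and 7.48 in wild-type and 6.35, 7.96, 6.47 and 7.15 in knockout iWAT. The groups overlapped through knockout replicate 2, and the change was -0.86 (standard error 0.34, adjusted p = 0.291). *Tgfb3* ranged from 5.12 to 5.93 in wild-type and from 4.55 to 5.26 in knockout iWAT, a change of -0.54 (adjusted p = 0.307). *Smad7* changed by -0.49 (adjusted p = 0.372).

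The high *Tgfb1* arrays in iWAT were those with lymphocyte markers. B cell markers averaged 8.05, 7.98, 3.25 and 3.15 in the wild-type arrays and 3.39, 7.61, 3.42 and 5.85 in the knockout arrays, and *Tgfb1* was highest in the 3 arrays with averages above 7 and lower in the other 5. With these 4 lymphocyte-rich arrays left out, a choice made after seeing the data that leaves 2 mice per genotype, *Tgfb1* changed by -1.14 (adjusted p = 0.0157) and *Tgfb3* by -1.06 (adjusted p = 0.0433). In that smaller set 2 of 9 genes were called, compared with 3.72% of all genes. The part of lymphocytes in these values was not tested.

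Changes called in one tissue and not in another were compared directly, by a genotype by tissue interaction over the 16 arrays of each pair of tissues, with 6 pairs in all. Between liver and eWAT, 3 of 9 genes differed, compared with 8.53% of all genes. The change in eWAT was lower than that in liver by -1.02 in *Tgfb2* (standard error 0.17, adjusted p = 0.00340), -0.73 in *Tgfbr1* (adjusted p = 0.0198) and -0.61 in *Tgfbr2* (adjusted p = 0.0318). That of *Tgfbr2* was lost in 9 of the 16 runs without 1 array, with adjusted p up to 0.0695, and with quantile normalization (-0.49, adjusted p = 0.0863). *Tgfb2* lay below the array median in wild-type liver (-0.18), so a fall there might not have been seen. *Tgfb1* did not differ between the 2 tissues beyond its error (-0.40, standard error 0.34). *Smad7*, called in liver alone, was not shown to differ from liver in any fat depot. Its change was higher than that in liver by 0.45 in eWAT (adjusted p = 0.107), 0.17 in iWAT (adjusted p = 0.853) and 0.15 in BAT (adjusted p = 0.923).

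Between eWAT and BAT, 4 of 9 genes differed, compared with 5.98% of all genes. *Tgfbr1*, lower in every knockout eWAT and higher in every knockout BAT, differed by 1.12 (standard error 0.18, adjusted p = 0.00538), and *Tgfbr2* differed by 0.71 (standard error 0.15, adjusted p = 0.0143). *Tgfb2* differed by 0.84 (adjusted p = 0.0225) and, without wild-type eWAT replicate 4, had an adjusted p of 0.0502. Its mean in wild-type BAT lay below the array median (-0.21), so a fall there might not have been seen. *Pmepa1* differed the other way, by -1.76 (standard error 0.42, adjusted p = 0.0249), a call that was lost in 6 of 16 runs without 1 array, with adjusted p up to 0.0559. *Tgfb1* fell short (0.90, adjusted p = 0.0752).

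*Pmepa1* was also the 1 gene of 9 whose change differed between liver and BAT, by -1.85 (standard error 0.26, adjusted p = 0.00790), compared with 0.146% of all genes. This difference held in all 16 runs without 1 array. *Pmepa1* lay 0.54 above the array median in wild-type liver and 5.92 above it in wild-type BAT, which left less room for a fall in liver. In the 3 pairs with iWAT, 0 of 9 genes differed, compared with 0.118% of all genes against liver, 0.0243% against eWAT and 0% against BAT. With limma, *Pmepa1* in BAT against iWAT had a difference of -1.42 with an adjusted p of 0.304. Each tissue enters 3 of these pairs, so the comparisons are not independent of each other.

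The wider pathway was described by 42 other genes, all measured, listed by role. In eWAT 14 of them were called lower and 0 higher, with a median change of -0.30, where 10.7% of all genes were called lower and 4.57% higher. Calls were more frequent among brighter genes. With genes at or below the median level left out, 3829 genes were called in eWAT in either direction, compared with 3758 of all 24646. By sign, 30 of the 42 changes were negative, compared with 43.5% of all genes, and 12 were positive. The positive changes included that of *Thbs1*, an activator of latent TGF-beta, at 0.60 (adjusted p = 0.0837, limma). Of 18 target genes 10 were called lower, of 11 genes of ligand storage and activation 3, of 10 SMAD proteins and their regulators 1, and of 3 receptors and coreceptors none.

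Among the targets, the protease inhibitor *Timp1* fell by 2.20 on the log2 scale in eWAT (adjusted p = 0.0180), the cell cycle inhibitor *Cdkn1a* by 2.07 (adjusted p = 0.0134) and *Lox*, which crosslinks collagen, by 1.38 (adjusted p = 0.0195). *Col1a1*, a chain of type I collagen, measured 8.95, 8.75, 8.28 and 8.73 in wild-type and 7.12, 8.13, 7.20 and 6.85 in knockout eWAT, a fall of 1.35 (standard error 0.26, adjusted p = 0.0123). Its partner chain *Col1a2* fell by 1.17 (adjusted p = 0.0169), fibronectin, *Fn1*, by 1.30 (adjusted p = 0.0315), and *Tgfbi*, a matrix protein named for its induction by TGF-beta, by 1.24 (adjusted p = 0.0170). In the group that stores and activates the ligands, the microfibril gene *Fbn1* fell by 1.49 (adjusted p = 0.0297), the integrin *Itgav*, which helps release active TGF-beta, by 0.58 (adjusted p = 0.0203) and the protease *Furin*, which cleaves the ligand precursors, by 0.49 (adjusted p = 0.0348). With quantile normalization the change of *Furin* was -0.31 and its call was lost (adjusted p = 0.0757). The SMAD corepressor *Tgif1* fell by 1.05 (adjusted p = 0.00886).

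The eWAT count depended on single arrays. Leaving out wild-type replicate 2 gave 3, wild-type replicate 4 gave 4, wild-type replicate 1 gave 9, knockout replicate 4 gave 6, knockout replicate 1 gave 7 and knockout replicate 2 gave 20. *Cdkn1a*, *Col1a1* and *Tgif1* stayed called in all 8 such runs.

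In liver 2 of the 42 genes were called lower, compared with 0.499% of all genes. *Tgfbi* measured 6.75, 6.99, 6.35 and 6.96 in wild-type and 5.04, 6.06, 5.18 and 5.59 in knockout livers, a fall of 1.30 (adjusted p = 0.0247). *Eng*, an endothelial TGF-beta coreceptor, fell by 1.00 (adjusted p = 0.0170), and neither collagen chain passed, with *Col1a1* at -0.18 (adjusted p = 0.744) and *Col1a2* at -0.05 (adjusted p = 0.865). *Col1a2* averaged 2.81 in wild-type livers, below the array medians of 3.00 to 3.06, so a fall might not have been seen. Of the 8 runs without 1 array, *Eng* lost its call in 5, with adjusted p up to 0.0649, and *Tgfbi* in 6, with adjusted p up to 0.0762.

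No other pathway gene was called in iWAT or BAT. With limma, 9 of 42 had an unadjusted p under 0.05 in iWAT, compared with 15.4% of all genes, and 10 of 42 in BAT, compared with 12.7%. The 3 with the smallest p in iWAT were *Acta2*, the smooth muscle actin of activated fibroblasts, at -1.38, *Thbs1*, an activator of latent TGF-beta, at -1.31, and *Fn1* at -0.80, and in BAT they were the SMAD corepressor *Ski* at -0.59, *Eng* at -0.74 and the related corepressor *Skil* at -0.82. *Tgfbi* changed by -0.67 in iWAT and -0.20 in BAT, *Col1a1* by 0.22 and -0.20, and *Col1a2* by -0.03 and -0.11. The sign of *Col1a2* in iWAT turned under 2 alternative treatments of the arrays. With the lymphocyte-rich arrays left out, a choice made after seeing the data, 9 of 42 were called in iWAT, compared with 3.72% of all genes.

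**Figure D3:**
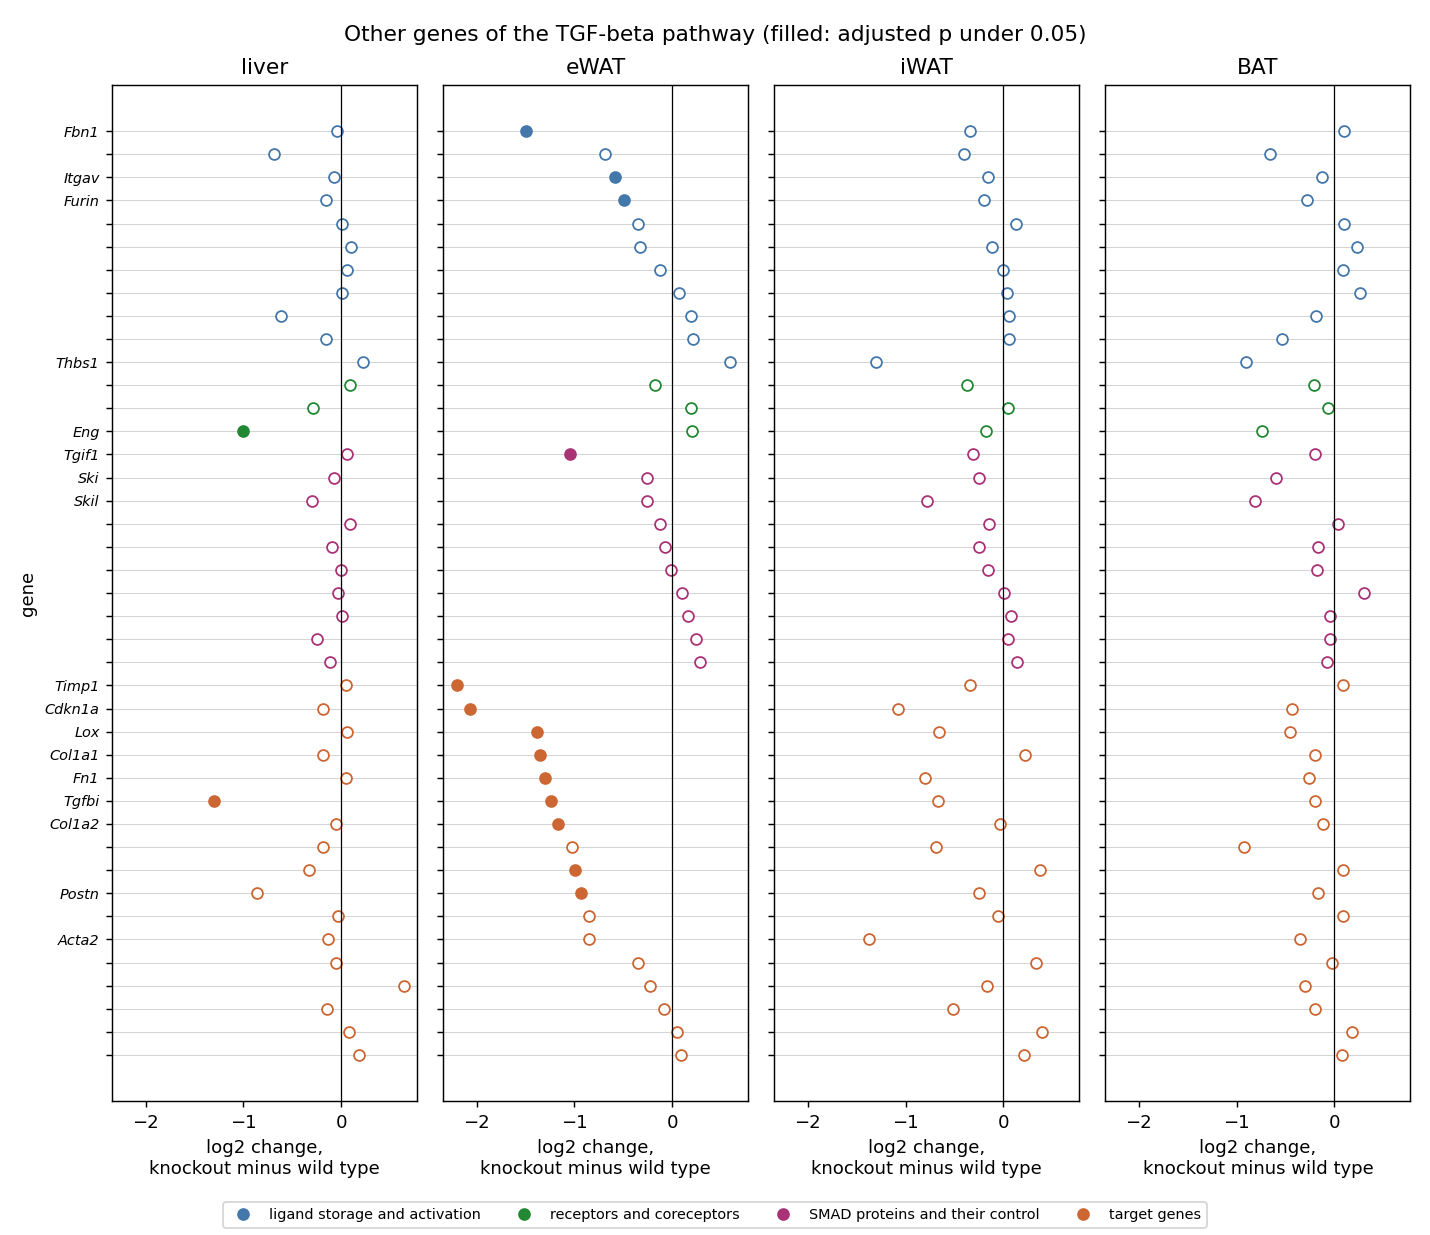
Log2 change, knockout minus wild type, of 41 of the 42 other pathway genes in each tissue, with the genes named in the text labelled, coloured by role and ordered within a role by the change in eWAT. Filled points passed the adjusted p of 0.05, 13 of those shown in eWAT, 2 in liver and 0 in iWAT and BAT.

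Markers of several cell types moved with the eWAT and liver results. In eWAT 7 of 8 macrophage markers were called lower, and their average lay between 8.30 and 8.51 in the wild-type arrays and at 6.19, 8.12, 6.81 and 6.43 in the knockout arrays. Knockout replicate 2 was thus highest among the knockouts both here and for *Tgfb1*, as it was for the fibroblast markers given next. Of 7 markers of fibroblasts and stromal progenitors 6 were called lower, with averages of 7.75 to 7.99 in wild-type and 6.52 to 7.57 in knockout eWAT, while of 5 adipocyte markers 4 were called higher and 1 lower. Of 5 mesothelial markers 2 were called lower, with averages of 4.55 to 6.24 in wild-type and 4.29 to 4.61 in knockout eWAT, which overlapped. Of 6 endothelial markers 1 was called higher, with averages of 7.42 to 7.53 and 7.51 to 7.85. Over the 8 eWAT arrays, both genotypes together, *Tgfb1* had a Pearson r of 0.98 with the fibroblast average. It was 0.97 with the macrophage average and -0.96 with the endothelial average. The part of these cell types in the eWAT changes was not tested. Without knockout replicate 2 the change of *Tgfb1* in eWAT was larger, at -1.67.

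In liver 0 of 8 macrophage markers were called, although 6 had an unadjusted p under 0.05 with limma, and their average was 4.41 to 4.93 in wild-type and 3.73 to 4.54 in knockout livers, with knockout replicate 2 again highest. Of 6 endothelial markers 3 were called lower, with averages of 4.41 to 4.55 and 3.47 to 4.16, and of 7 fibroblast markers 2 were. *Smad7*, *Tgfb1* and *Eng* were lower in the same arrays, and the part of these cell types was not tested. Over the 8 liver arrays, both genotypes together, *Tgfb1* had a Pearson r of 0.97 with the endothelial average. It was 0.89 with the macrophage average and 0.85 with the fibroblast average. For *Smad7* the r was 0.83 with the endothelial, 0.86 with the macrophage and 0.69 with the fibroblast average. In BAT, brown adipocyte markers averaged 8.89 to 9.15 in wild-type and 8.34 to 8.66 in knockout arrays, without overlap, and 0 of 5 were called (lowest adjusted p = 0.190). The markers were not uniform, as 4 had a negative change and 1 a positive one. Without overlap, 1 marker lay lower and 1 higher in the knockout arrays. Macrophage markers in BAT overlapped, at 4.62 to 5.30 and 4.37 to 5.11. Over the 8 BAT arrays, both genotypes together, the Pearson r with the brown adipocyte average was 0.95 for *Tgfb1* and 0.89 for *Pmepa1*. With the macrophage average it was 0.22 and 0.19. The part of either cell type in the change of *Pmepa1* and *Tgfb1* was not tested.

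**Figure D4:**
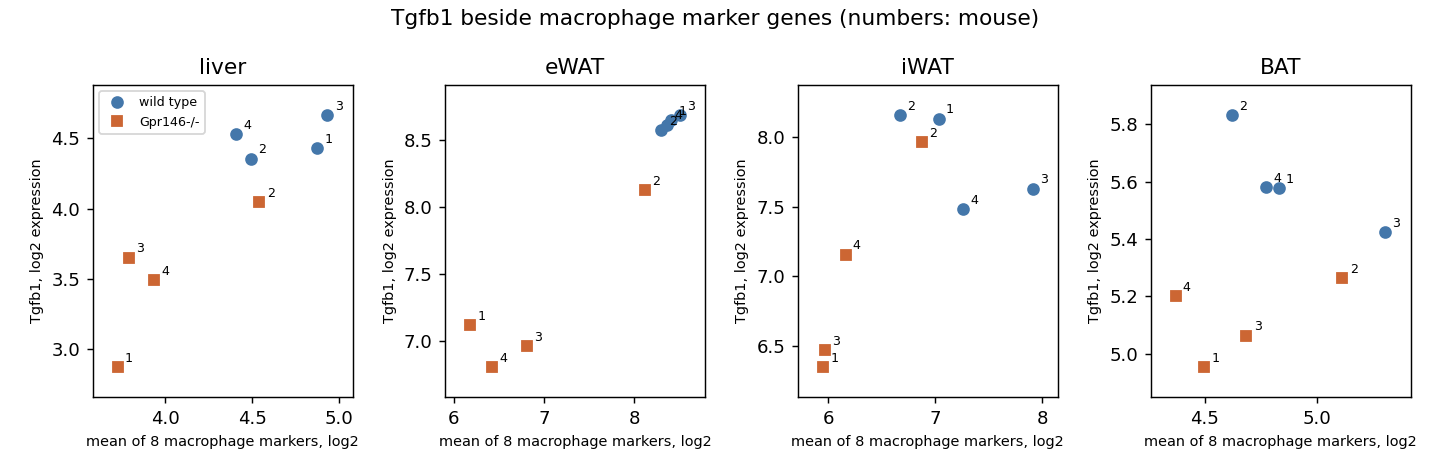
*Tgfb1* against the average of 8 macrophage markers, both as log2 expression, with 1 point per array, numbered by mouse, in each tissue. In eWAT the 4 wild-type arrays lie together at the top right, with knockout replicate 2 next to them at 8.12 on both axes. The other 3 knockouts lie at the lower left. In BAT the 2 genotypes differ in *Tgfb1* at like macrophage marker levels. Fibroblast markers, not drawn, ran about as closely with *Tgfb1* in eWAT. Brown adipocyte markers, not drawn, ran with *Tgfb1* in BAT (Pearson r = 0.95).

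The genes most like *Pmepa1*, which had the smallest p of the 9 genes, were taken by the highest Pearson r over the 32 arrays after subtracting the mean of each tissue. They were *Tusc5* (r = 0.86), which encodes an adipocyte protein of insulin-regulated glucose transporter vesicles, *Zfp423* (r = 0.80), a transcription factor of white adipocyte identity, and *Slc25a42* (r = 0.79), a mitochondrial coenzyme A carrier. These are descriptions over arrays that share genotype differences, animals and tissue composition. Within tissues, r for *Tusc5* was 0.94 in BAT, 0.95 in iWAT and 0.82 in eWAT over 8 arrays each, and 0.01 in liver. In BAT, *Tusc5* measured 9.60, 9.87, 9.83 and 9.57 in wild-type and 9.25, 8.86, 8.99 and 8.999 in knockout mice. Its groups did not overlap, and its change of -0.69 had an adjusted p of 0.0731.

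**Figure D5:**
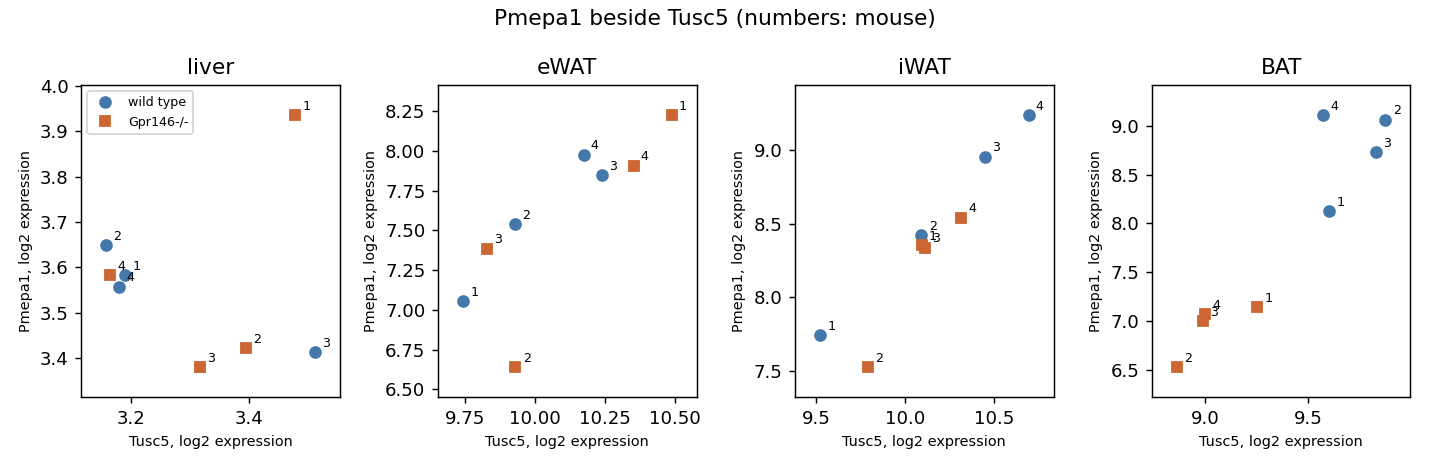
*Pmepa1* against *Tusc5*, both as log2 expression, with 1 point per array, numbered by mouse, in each tissue. In BAT the wild-type arrays lie at or above 8.12 and the knockout arrays at or below 7.14 in *Pmepa1*, in eWAT and iWAT the genotypes are mixed along 1 rising line, and in liver no such line is seen.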

How the data were processed

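Total RNA (100 ng per sample, biotin-labelled) of 32 samples was hybridized to 1-colour arrays. The authors deposited log2 expression values, with a table for each tissue and 1 value per gene symbol, normalized within a tissue by a method not given in the sources used here. For 840 genes the deposited identifier held a decimal point, which may mark a value averaged over probe sets. The sources used here do not say so. From each tissue 1 or 2 entries with a blank or damaged name were left out, leaving 24646 genes. Array medians spanned 3.00 to 3.06 in liver, 3.13 to 3.18 in eWAT, 3.65 to 3.73 in iWAT and 2.82 to 2.86 in BAT. Precision was limited by the number of arrays.

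Genotype and tissue came from the sample labels. Knockout and wild-type arrays of a tissue entered a limma fit (version 3.58.1, R 4.3.3), p-values were adjusted over all genes, and changes were compared between tissues by interaction terms. The files were checked for duplicated arrays by pairwise correlation, which stayed at or under 0.995. The pipeline was tested on simulated data. The named pathway genes are those past the threshold, up to 5 falls per role, *Tgfbi*, *Col1a1* and *Col1a2*, or the 3 with the smallest p where none passed. Members, lists and tests were chosen with earlier results of these data known. Wild-type and knockout mice of one number are different animals, while the labels give mouse numbers per genotype that recur across tissues, so p-values over 2 tissues may share animals. Alternatives were quantile normalization, equal array medians, dim genes left out, a trended robust prior, array weights, the methods' t-test, a block for the replicate number and each array left out. Figures were drawn with matplotlib 3.10.9. A gene of the pathway list is counted but not reported singly here.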

Additional observations from a re-analysis of the deposited data

Results flagged for a closer look

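Of 128 groups of 4 arrays examined for a value far from the other 3, 5 stood out (3.91%), and chance alone gives about 5%. *Ctgf* in wild-type BAT replicate 2, an array with high muscle markers, was 2.98 against 2.69 to 2.70 in the other 3. The values of 3 genes were high in 1 array, that of knockout eWAT replicate 2, namely *Tgfbi* at 7.999 (others 6.63 to 6.76), *Timp1* at 4.44 (others 2.70 to 2.76) and *Itgav* at 4.80 (others 4.18 to 4.26), and *Tgif1* in knockout eWAT replicate 4 was low, at 3.33 (others 3.95 to 4.06).

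Changes of 8 gene and tissue pairs differed between tissues by the interaction test. The change in eWAT minus that in liver was -1.02 in *Tgfb2*, -0.73 in *Tgfbr1* and -0.61 in *Tgfbr2*. The change in BAT minus that in eWAT was 0.84 in *Tgfb2*, 1.12 in *Tgfbr1*, 0.71 in *Tgfbr2* and -1.76 in *Pmepa1*, and the change in BAT minus that in liver was -1.85 in *Pmepa1*. Low wild-type levels of *Tgfb2* in liver and BAT, and of *Pmepa1* in liver, left less room for a fall there.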

How the results depend on the processing

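The 4 calls in eWAT were kept under every alternative except the methods' t-test after adjustment, which called 0 of the 9 genes in every tissue and 0 of the 42 pathway genes in eWAT (14 with limma) and in liver (2 with limma). The single call in liver became 0 with quantile normalization and 2 with equal medians, dim genes left out, a trended robust prior, array weights or the t-test before adjustment, *Tgfb1* being the added gene in each. The single call in BAT became 0 with quantile normalization, equal medians, the replicate block (adjusted p of *Pmepa1* 0.0664, 0.0543 and 0.0656) and the muscle arrays left out, and 3 with the t-test before adjustment. That test before adjustment counted 10 of the 42 pathway genes in liver, 7 in iWAT and 4 in BAT. Over all 24646 genes it counted 2901 in liver, 3167 in iWAT and 2803 in BAT. Leaving out the lymphocyte arrays in iWAT gave 2 members and 9 pathway genes. With 1 array left out, the members called numbered 0 to 2 in liver, 4 to 5 in eWAT, 0 to 0 in iWAT and 0 to 1 in BAT, the pathway genes 0 to 3, 3 to 20, 0 to 0 and 0 to 0, and the members that differed 2 to 4 between liver and eWAT, 3 to 5 between eWAT and BAT, 1 to 1 between liver and BAT and 0 to 1 between eWAT and iWAT. Signs of uncalled changes near 0 turned. *Tgfbr1* in liver became 0.014 with quantile normalization, *Pmepa1* in eWAT 0.10 with it and 0.17 with array weights, and *Col1a2* in iWAT 0.15 and 0.087. Without the arrays of other tissue, *Smad3* became -0.053 in iWAT and 0.074 in BAT, and *Ctgf* 0.057 in BAT. With 1 array left out, *Tgfb2* in liver spanned -0.0033 to 0.14, *Tgfbr2* -0.037 to 0.13, *Smad3* -0.061 to 0.12, *Pmepa1* -0.089 to 0.096 and *Col1a2* -0.11 to 0.0027, *Pmepa1* in eWAT -0.29 to 0.23, *Col1a2* in iWAT -0.19 to 0.090, and in BAT *Smad3* -0.21 to 0.027, *Ctgf* -0.041 to 0.069 and *Col1a2* -0.24 to 0.0067. The cause of these shifts was not tested. With the replicate block *Furin* (adjusted p = 0.0560) lost its call in eWAT, as *Postn* (0.0533) did with quantile normalization, and with the mouse number as a pair *Tgfb1* passed between eWAT and BAT (0.0491). The block changed no other count of members or pathway genes by over 1.5 times; wild-type and knockout mice of 1 number share only that number, and their deviations correlated between -0.38 and 0.67.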
